A study of Mus musculus with 6 samples.

Results

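The unfolded protein response and the folding machinery of the endoplasmic reticulum (ER) were followed around the day in mouse pancreatic islets, the endocrine cell clusters that make insulin and glucagon. The set held 32 genes of the 24127 tested, chosen by name for their roles: 14 chaperones, co-chaperones and folding enzymes, 8 genes of ER-associated degradation (ERAD) and translocation, 4 genes of the stress sensors and the XBP1 factor, and 6 genes of the ATF4 arm. All 32 matched the array through the RefSeq transcript of 40 probes, and 7 of them had more than 1 probe. The donors were C57BL6 males 8 weeks old that ate chow and lived in a cycle of 12 h light and 12 h darkness, with no other treatment or allele named. Islets were isolated with collagenase every 4 h at zeitgeber times (ZT) 0 (lights on), 4, 8, 12 (lights off), 16 and 20. RNA of 3 to 5 mice was pooled at each time and read on 1 single-colour array, so each time point was 1 sample, the spread between mice was not measured, and time could not be told apart from the pool or the array. The series followed gene expression around the day, and the comparisons here were those over time, between the chaperones and the ATF4 arm, and between the chaperones and islet endocrine genes.

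Secreted proteins enter the ER through the translocon, are folded there by chaperones and disulphide isomerases, and are sent back for degradation by ERAD when folding fails. In the unfolded protein response, the sensors ATF6, IRE1 (gene Ern1) and PERK (gene Eif2ak3) respond to unfolded protein. Cleaved ATF6 and the XBP1 protein made after IRE1 splices its messenger induce chaperone and ERAD genes, whereas PERK slows translation and favours synthesis of ATF4, which induces genes of amino acid supply and of the later stress response. Beta cells depend on this machinery because proinsulin is among their main ER products. ATF4 is regulated largely in translation, ATF6 by cleavage and XBP1 by splicing, and an array of total messenger reads none of these steps. The sources used here do not say whether the Xbp1 probe lies in the spliced segment.

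Promoters were set out first because the arms act through different DNA elements. RefSeq windows of 300 bases, 250 before and 50 after the start of transcription on GRCm38.p6, were given for 28 of the 32 genes; Manf, Hyou1, Derl1 and Atf6 were not matched. Motifs were searched on both strands. The ER stress element (ERSE; CCAAT, 9 bases of any kind, then CCACG), bound by ATF6 and XBP1 with NF-Y, was in 0.119% of all 32851 windows and in those of 9 member genes. These were 7 of 12 chaperone genes (Hspa5, Hsp90b1, Pdia6, Calr, Canx, Dnajc3 and Creld2), 2 of 7 ERAD genes (Syvn1 and Derl3), 0 of 3 sensor genes and 0 of 6 ATF4-arm genes. The related ERSE-II (ATTGG, 1 base, then CCACG) was in 0.0365% of all windows and in Dnajb11 and Herpud1. The ATF4 element searched (CARE; TGATGNAA) was in 3.97% of all windows and in 4 member genes, of which 3 were ATF4-arm genes (Trib3, Chac1 and Asns) and the other was Herpud1. The UPR element searched (TGACGTGG) was in 0.676% of windows and in 0 of the 28 member genes, and the E-box CACGTG, the site of CLOCK and BMAL1, was in 7.15% of windows and in Calr, Dnajb9 and Derl3. The bare CCACG, which ERSE and ERSE-II contain and which the UPR element holds in reverse, was in 32.8% of windows and in 22 of the 28 genes. A match describes these letters in this window and is not a measured binding site.

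Shown here are the 250 bases before the start of 5 genes that differ in these elements, read 5′ to 3′ along the gene. Capitals mark the named ends of ERSE or ERSE-II, or a whole CARE.
Hspa5 (chr2:34771840-34772089, plus strand): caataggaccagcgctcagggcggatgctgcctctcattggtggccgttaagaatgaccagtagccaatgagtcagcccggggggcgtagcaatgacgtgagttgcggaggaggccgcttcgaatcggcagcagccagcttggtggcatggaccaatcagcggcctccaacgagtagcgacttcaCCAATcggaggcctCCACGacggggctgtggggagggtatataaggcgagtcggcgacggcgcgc
Hsp90b1 (chr10:86705445-86705694, minus strand): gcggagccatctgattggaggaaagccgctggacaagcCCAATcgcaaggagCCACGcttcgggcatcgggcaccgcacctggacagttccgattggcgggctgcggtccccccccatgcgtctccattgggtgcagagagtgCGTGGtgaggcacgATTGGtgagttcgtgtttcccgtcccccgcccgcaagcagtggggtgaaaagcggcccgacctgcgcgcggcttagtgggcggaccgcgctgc
Herpud1 (chr8:94386179-94386428, plus strand): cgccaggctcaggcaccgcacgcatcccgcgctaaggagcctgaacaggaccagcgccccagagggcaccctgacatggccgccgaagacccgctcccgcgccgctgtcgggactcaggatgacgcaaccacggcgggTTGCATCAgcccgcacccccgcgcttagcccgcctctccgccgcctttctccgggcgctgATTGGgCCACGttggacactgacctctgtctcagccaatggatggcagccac
Chac1 (chr2:119350992-119351241, plus strand): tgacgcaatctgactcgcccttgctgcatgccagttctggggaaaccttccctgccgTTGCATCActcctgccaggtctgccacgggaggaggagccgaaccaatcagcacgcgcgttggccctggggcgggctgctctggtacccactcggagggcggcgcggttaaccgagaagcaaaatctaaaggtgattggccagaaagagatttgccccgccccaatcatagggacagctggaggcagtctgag
Asns (chr6:7693210-7693459, minus strand): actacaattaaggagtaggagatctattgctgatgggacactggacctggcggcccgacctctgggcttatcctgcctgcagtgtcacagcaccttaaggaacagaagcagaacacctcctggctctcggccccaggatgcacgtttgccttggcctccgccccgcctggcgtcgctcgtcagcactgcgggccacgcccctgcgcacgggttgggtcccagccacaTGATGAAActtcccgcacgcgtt
In Hspa5 the ERSE ran from base -65 to -47 before the start. Hsp90b1 carried an ERSE on each strand, from -212 to -194 and, reversed, from -107 to -89. Herpud1 carried both an ERSE-II, from -52 to -42, and a reversed CARE, from -112 to -105. The CARE of Chac1 was reversed and lay from -193 to -186, and that of Asns ran forward from -23 to -16.

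Of the 43020 non-control spots, 66.1% (ZT4) to 84.4% (ZT0) were well above background and 0 were saturated. The 75th percentile of signal was lowest at ZT4 (506) and highest at ZT8 (2090). Outlier spots numbered 1743 at ZT0 and 166 to 247 elsewhere. The ZT8, ZT12, ZT16 and ZT20 arrays were read in 1 scan, the ZT4 array in another scan on the same day, and the ZT0 array on a later day. The amylin gene Iapp and the insulin gene Ins2 were well above background on all 6 arrays. Levels below are log2 processed signal minus the array's 75th percentile, so 0 is that percentile, and a deviation is a level minus the gene's own mean over the 6 arrays. Levels of different probes are not compared. Scaling mattered for bright genes: over the 357 genes with a mean level of 6 or more, the median deviation was 0.63 at ZT0, 1.11 at ZT4 and -0.52 at ZT16, but -0.06, 0.08 and -0.02 after quantile normalization. Quantile normalization kept the highest array of 25 of the 32 genes and the lowest of 29, and widened the range of 8 by more than 1.5 times. Its value is given beside each gene whose highest or lowest array it changed and each range it widened that far, except for the dim gene Hyou1.

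Across the set, the arrays of ZT4 and ZT12 were low and those of ZT16 and ZT20 were high. The median deviation of the 32 genes was 0.29, -0.74 and -0.19 on the ZT0, ZT4 and ZT8 arrays and -0.57, 0.51 and 0.58 on those of ZT12, ZT16 and ZT20, while that of all genes tested lay between -0.03 and 0.06. The members' median at ZT8 turned to 0.09 with quantile normalization and was -0.36 with median centring, and that at ZT0 was 0.10 with quantile normalization and -0.04 with normexp background correction. The lowest array was ZT4 for 16 members (22.4% of all genes) and ZT12 for 9 (21.1%), together 25 of 32. The 16 include Hyou1, which was not well above background at ZT4. With only genes well above background on all 6 arrays, 15 members were lowest at ZT4 (18.5% of all genes so filtered). The ZT4 array also had the lowest signal and the smallest share of spots above background, and the part of this in its low values was not tested. The highest array was ZT0 for 10 members (21.5% of all genes), ZT16 for 9 (17.3%) and ZT20 for 9 (15.2%). After quantile normalization 17 members were lowest at ZT4 (20.3% of all genes) and 8 at ZT12 (18.9%). On that scale 6 were highest at ZT0 (19.1% of all genes), 12 at ZT16 (20.8%) and 11 at ZT20 (13.3%). With each array centred on its median, 14 were lowest at ZT4 (19.9% of all genes), 8 at ZT8 (14.5%) and 5 at ZT12 (17.6%). The place of ZT12 before ZT8 thus depended on the scaling, and the 5 at ZT12 were near the share of all genes. The order between ZT0 and the dark-phase arrays thus depended on the scaling for several genes, Hspa5 and Xbp1 among them. A range of at least 2-fold across arrays was found for 31 of 32 members and for 90.2% of all genes, so a wide range alone did not mark these genes. Sec61b, at 1.76-fold, was the exception, but after quantile normalization it ranged 3.23-fold and Ppp1r15a, at 1.96-fold, was the member under 2-fold. The 31 include Hyou1, which was not well above background on 3 arrays.

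**Figure D1:**
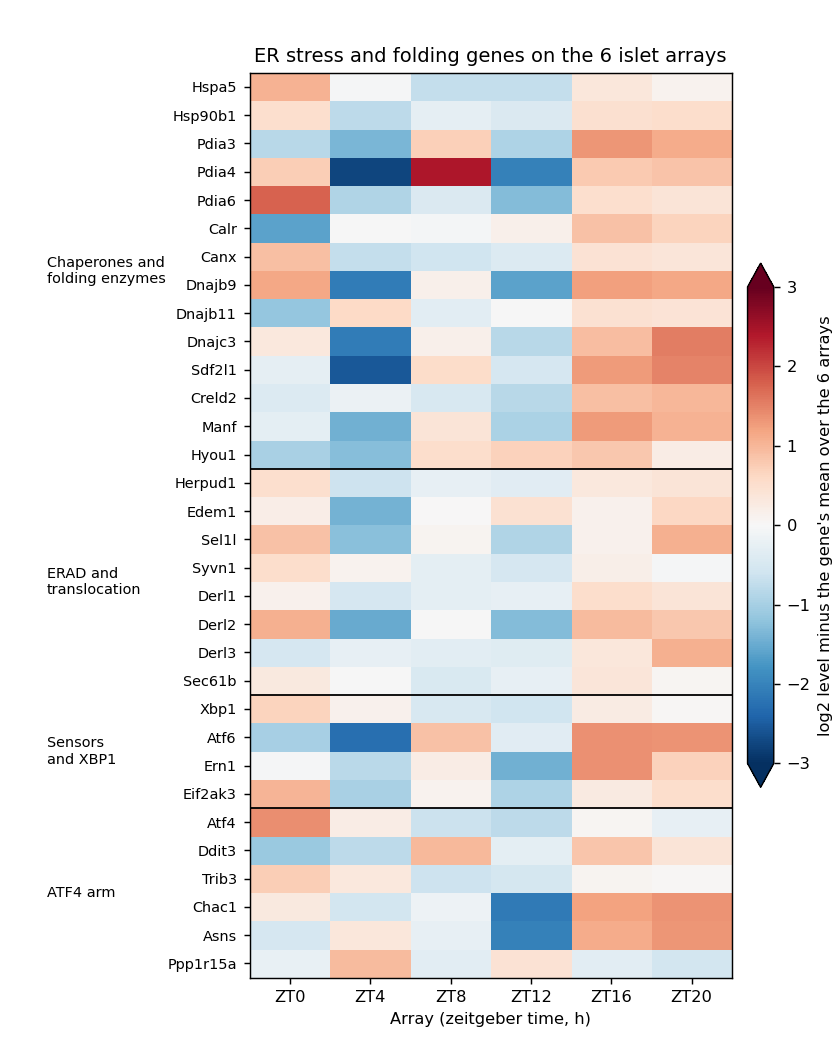
Deviation of each of the 32 genes (rows, by role) on the 6 arrays (columns, 1 pooled array per time point), as the log2 level minus the gene's mean; red is above and blue below the mean. Most rows are blue at ZT4 and ZT12 and red at ZT16 and ZT20, whereas Ppp1r15a, highest at ZT4 and lowest at ZT20, runs the other way.

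Genes were next counted by whether their level on an array differed 2-fold or more from the median over the remaining 5. On the ZT4 array 17 members were that far below and 1, Ppp1r15a, above, against 21.8% and 21.8% of all genes. The 17 include Hyou1, which was not well above background at ZT4. With only genes well above background on all 6 arrays the count was 16. At ZT12, 14 members were below and 0 above, against 20.3% and 17.0% of all genes. At ZT16, 10 were above and 0 below (10.7% and 13.8% of all genes), and at ZT20, 10 were above and 0 below (12.8% and 12.5%). The ZT8 array stood nearest the others, with 4 members above and 1 below (8.50% and 2.0% of all genes). At ZT0, 6 were above and 6 below (16.8% and 19.7% of all genes), but the 6 above became 3 without the ZT4 array and 0 after quantile normalization. The 6 below, Hyou1 among them, became 5 with only genes well above background on all 6 arrays. The 4 above at ZT8 became 1 without the ZT0 array, 1 without ZT4 and 2 without ZT12, and the 1 below became 0 without ZT0, without ZT16 or without ZT20. Within the 4 arrays of the shared scan, ZT12 was the lowest array for 23 of 32 members, against 38.9% of all genes. Against the other 3 arrays of that scan, 6 members were 2-fold above at ZT16 and 6 at ZT20 (8.03% and 8.75% of all genes).

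No member passed the test for a 24 h cosine. That test, limma's moderated F test on 6 arrays with Benjamini-Hochberg adjustment over all genes, called 0 members and 0% of all genes. Adjusted p-values of the members ran from 0.754 to 0.937. Before adjustment 0 members were under 0.05, against 4.00% of all genes (965 genes), and the smallest unadjusted p was 0.056, for the dim gene Hyou1. The exact permutation test over all orders of the arrays, whose smallest possible p is 0.0167, gave the members 0.067 to 0.917. Without the ZT8 array, 11 members were under 0.05 before adjustment, but so were 16.7% of all genes, and without the ZT12 array 2 were, with 10.2% of all genes; adjusted counts stayed at 0. The fitted peak, which the test does not support for any gene, fell between ZT12 and ZT24 for 31 of 32 members and for 54.5% of all genes. The exception was Ppp1r15a, fitted at ZT6.43.

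Among the chaperones, the levels on the ZT4 and ZT12 arrays were low for most genes, and those on ZT16 and ZT20 were high. Hspa5 encodes BiP, the HSP70 chaperone of the ER that also holds the sensors inactive. Its level was 7.61 at lights on, 6.51 at ZT4, 5.84 at ZT8, 5.83 at lights off, then 6.89 at ZT16 and 6.66 at ZT20. It was thus highest at ZT0, by 3.43-fold over ZT12. After quantile normalization its deviation was 0.44 at ZT0, below 0.77 at ZT16 and 0.62 at ZT20, and it was lowest at ZT12 (-0.89) and ZT4 (-0.88). Hsp90b1 encodes GRP94, the HSP90 chaperone of the ER. Its level was 6.02, 4.73, 5.25, 5.08, 6.00 and 6.06 from ZT0 to ZT20 in order, with 2.52-fold between ZT20 and ZT4. ZT0 lay with ZT16 and ZT20 above the other 3 arrays on this scale. After quantile normalization its deviation was -0.12, below 0.27 at ZT8, and ZT20 (1.06) and ZT4 (-1.53) were 6.00-fold apart.

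Pdia6, a protein disulphide isomerase, read 7.33, 4.65, 5.13, 4.25, 6.06 and 5.93 from ZT0 to ZT20, a range of 8.45-fold. After quantile normalization ZT4 (-1.62) was lower than ZT12 (-1.53). A second Pdia6 probe was also lowest at ZT12 but was highest at ZT20. Pdia4, another isomerase of that family, had the widest range of the 32 genes. It read -1.48, -4.96 and 0.22 on the ZT0, ZT4 and ZT8 arrays and -4.23, -1.42 and -1.35 on those of ZT12, ZT16 and ZT20, and so ZT8 was 36.4-fold above ZT4. The ZT4 value lay next to the lowest level well above background on that array (-4.97), so the size of this fold is uncertain. The fitted cosine of Pdia4 had a small amplitude (peak minus trough, in log2) of 1.14 with a standard error of 1.98 (limma adjusted p = 0.937).

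The other chaperone genes repeated parts of this profile. Dnajb9, Dnajc3 and Sdf2l1, the first 2 J-domain co-chaperones of BiP and the third a partner of ER J-proteins, were lowest at ZT4 by 10.1-fold, 12.5-fold and 16.2-fold below their highest array, which was ZT16 for Dnajb9 and ZT20 for the others. After quantile normalization the range of Dnajb9 was 16.1-fold. A second Dnajb9 probe was also lowest at ZT4 but was highest at ZT20. Manf, a secreted ER stress protein, and Pdia3, the isomerase that works with calnexin and calreticulin on glycoproteins, were lowest at ZT4 and highest at ZT16, with ranges of 6.56-fold and 6.51-fold, or 11.1-fold and 12.6-fold after quantile normalization. Creld2, an ER stress-induced folding factor, was lowest at ZT12 and highest at ZT20 (3.60-fold, or 5.54-fold after quantile normalization). Canx, the membrane lectin chaperone calnexin, was lowest at ZT4 and highest at ZT0 (3.05-fold), or at ZT16 after quantile normalization. Calr, the soluble lectin chaperone calreticulin, and Dnajb11, another J-protein of BiP, were instead lowest at ZT0, with ranges of 5.55-fold and 3.37-fold. Calr was highest at ZT16, and Dnajb11 at ZT4, or at ZT20 after quantile normalization. The other Dnajb11 probe was not well above background on any array. Hyou1, the nucleotide exchange factor of BiP, was well above background at ZT8, ZT12 and ZT16 and not at ZT0, ZT4 and ZT20. No fold or order of arrays is given for it beyond its place in the counts.

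**Figure D2:**
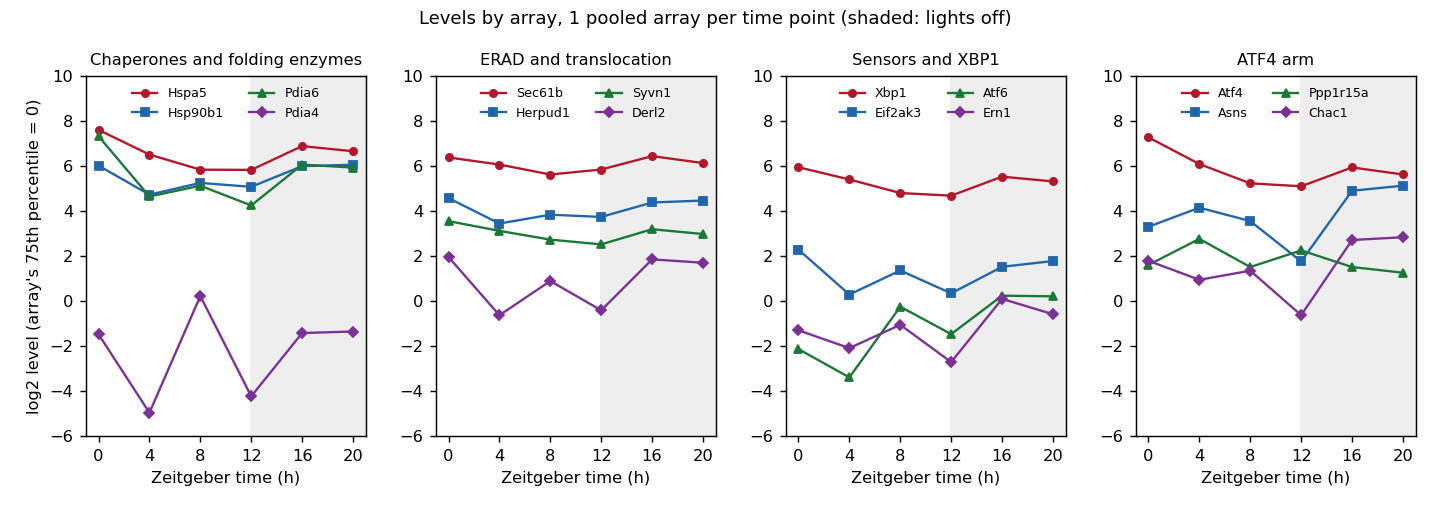
Log2 level (0 is the array's 75th percentile) of 16 genes in 4 role groups against zeitgeber time, 1 pooled array per point, with the dark phase shaded. Pdia4 alternates between low values at ZT4 and ZT12 and its high at ZT8, Atf4 is highest at ZT0, and Asns and Chac1 dip at ZT12 and are highest at ZT20.

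ERAD and translocation genes had a median deviation of -0.57 at ZT4, -0.26 at ZT8 and 0.51 at ZT20, or -1.02, 0.09 and 0.78 after quantile normalization. Their median range was 1.35 log2 units, against 2.59 for the chaperones and 2.10 for all genes. Sec61b, a subunit of the SEC61 translocon, read 6.38, 6.07, 5.62, 5.85, 6.44 and 6.13 from ZT0 to ZT20. Its lowest array was ZT8, or ZT4 after quantile normalization. A second, dimmer Sec61b probe ranged over 3.07 log2 units and was lowest at ZT0 and highest at ZT20, so the 2 probes disagreed. Herpud1, a membrane protein that organises the ERAD complex, read 4.58 at lights on, 3.45 at ZT4, 3.84 at ZT8, 3.74 at lights off, then 4.38 at ZT16 and 4.47 at ZT20. Its range was 2.19-fold, from ZT4 to ZT0, but 4.02-fold and from ZT4 to ZT20 after quantile normalization. Syvn1, the ubiquitin ligase HRD1, read 3.55, 3.12, 2.73, 2.52, 3.19 and 2.98 over the same arrays, a 2.04-fold range with its low at ZT12.

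Derl2, a derlin of the ERAD channel, had the widest range of this group on the probes used. It read 1.96, -0.63, 0.89, -0.41, 1.85 and 1.70 from ZT0 to ZT20, so that ZT4 and ZT12 stood below the other 4 arrays, by 6.02-fold between ZT0 and ZT4. The other tested Derl2 probe was also lowest at ZT4 but was highest at ZT8. A brighter Derl2 probe, left out by the rule on outlying spots, was well above background on all 6 arrays. It ranged over only 0.94 log2 units, was lowest at ZT12 and highest at ZT16, and read 3.30 at ZT0 and 3.27 at ZT4. With outlier spots kept, the fitted amplitude of Derl2 was 0.785, against 2.16 as reported. The low ZT4 value of Derl2 thus depended on the probe. Edem1, a lectin that passes misfolded glycoproteins to ERAD, and Sel1l, the partner of HRD1, were lowest at ZT4 and highest at ZT20, with ranges of 4.11-fold and 5.03-fold. Derl1 was lowest at ZT4 and highest at ZT16 (2.02-fold) on the probe used and highest at ZT4 on its other probe. Derl3, the derlin most tied to secretory cells, was lowest at ZT0 and highest at ZT20 (2.97-fold).

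The 3 sensor genes and Xbp1 were each lowest at ZT4 or ZT12. Xbp1, the factor made from the IRE1-spliced messenger, read 5.95, 5.40 and 4.80 on the ZT0, ZT4 and ZT8 arrays and 4.68, 5.53 and 5.32 on those of ZT12, ZT16 and ZT20, a range of 2.40-fold. After quantile normalization ZT16 (0.78) stood above ZT0 (0.08) and ZT12 remained the lowest (-0.84). Eif2ak3, the PERK kinase, read 2.28, 0.29, 1.36, 0.34, 1.52 and 1.78 from ZT0 to ZT20, with ZT4 and ZT12 below the other arrays and a range of 3.98-fold. Atf6 read -2.14 at lights on, -3.39 at ZT4, -0.25 at ZT8, -1.47 at lights off, then 0.24 at ZT16 and 0.21 at ZT20. It was 12.4-fold higher at ZT16 than at ZT4, and its ZT0 value was low, unlike those of Xbp1 and Eif2ak3. Ern1, the IRE1 sensor, was lowest at ZT12 and highest at ZT16 (7.01-fold).

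Genes of the ATF4 arm shared the low ZT12 array in part and had no common profile at ZT4. Atf4, the transcription factor, read 7.28, 6.09, 5.23, 5.10, 5.94 and 5.63 from ZT0 to ZT20. Its high at ZT0, 4.52-fold above ZT12, stayed the highest after quantile normalization (0.75). The other Atf4 probe, dimmer, was highest at ZT8 and lowest at ZT4, with -0.56 and -4.67, so this profile rests on the brighter probe. Asns, asparagine synthetase, read 3.30, 4.15, 3.55, 1.76, 4.90 and 5.13 from ZT0 to ZT20, and ZT12 stood below the other 5 arrays, by 10.3-fold against ZT20 or 17.3-fold after quantile normalization. Chac1, which degrades glutathione, read 1.79, 0.95 and 1.35 on the ZT0, ZT4 and ZT8 arrays and -0.63, 2.71 and 2.84 on those of ZT12, ZT16 and ZT20, with the same low array and a range of 3.46 log2 units.

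Ppp1r15a encodes GADD34, the phosphatase subunit that reverses PERK signalling. It read 1.60 at lights on, 2.76 at ZT4, 1.51 at ZT8, 2.25 at lights off, then 1.51 at ZT16 and 1.26 at ZT20. It was thus high on the ZT4 and ZT12 arrays, where most members were low, with a range of 2.84-fold. Ddit3, the stress factor CHOP, was lowest at ZT0 and highest at ZT8 (4.24-fold), with 0.87 at both ZT8 and ZT16 after quantile normalization, and Trib3, a pseudokinase induced by ATF4 and CHOP, was lowest at ZT8 and highest at ZT0 (2.56-fold). The 4 genes with a CARE, Herpud1, Trib3, Chac1 and Asns, had a median deviation of -0.12 at ZT4, -1.29 at ZT12 and 0.86 at ZT20, or -0.56, -1.37 and 1.15 after quantile normalization. For the 9 genes with an ERSE these were -0.25, -0.50 and 0.54, or -0.88, -0.68 and 0.92.

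The chaperones and the ATF4 arm parted most on the ZT4 array. There 10 of 14 chaperones and 1 of 6 ATF4-arm genes were at least 2-fold below the median of the other arrays, against 21.8% of all genes. The 10 include Hyou1, which was not well above background at ZT4. The median deviation at ZT4 was -1.10 for the chaperones and 0.26 for the ATF4 arm, the latter turning to -0.47 after quantile normalization. The difference between these medians at ZT4 was -1.36, and -1.10 after quantile normalization. On the other arrays the difference ran from -0.12 at ZT12 to 0.54 at ZT20. At ZT12 it turned to 0.10 without the ZT20 array and was -0.47 within the shared scan. At ZT8 it turned to -0.03 within the shared scan, from 0.32. The difference at ZT0 was -0.02, -0.27 after quantile normalization and 0.28 with only genes well above background on all 6 arrays, so no direction is given there. At ZT12 both lists were low, with medians of -0.78 and -0.66. On that array 7 of 14 chaperones and 2 of 6 ATF4-arm genes were 2-fold below, against 20.3% of all genes. At ZT16 the medians were 0.84 and 0.46. The lists hold 14 and 6 genes on 1 array per time, so these differences are described and not tested.

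**Figure D3:**
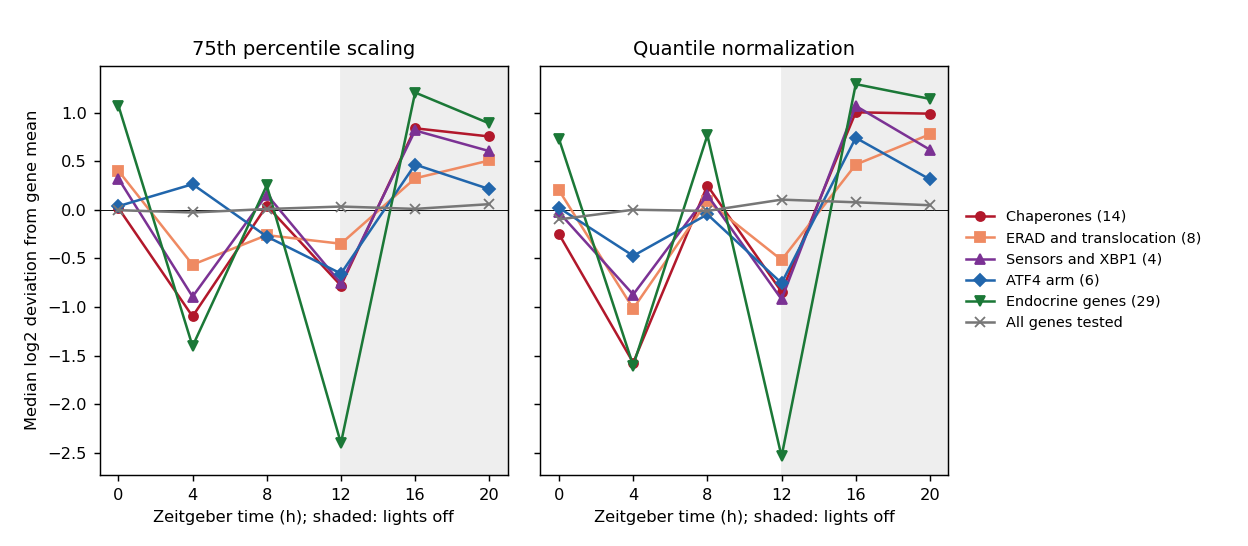
Median log2 deviation from each gene's mean on the 6 arrays for the 4 role lists, the endocrine genes and all genes tested, with 75th percentile scaling (left) and quantile normalization (right); the dark phase is shaded. The chaperones lie at -1.10 at ZT4 and the endocrine genes at -2.40 at ZT12 on the left, and the ATF4 arm at ZT4 changes side between the panels.

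Islet endocrine genes (hormones, granins, prohormone convertases, islet transcription factors and glucose sensing genes; 29 of 31 listed were tested, without Pcsk1n and Mafa) were low on the same 2 arrays but in the other order. Their median deviation was 1.07, -1.40, 0.25, -2.40, 1.21 and 0.89 from ZT0 to ZT20. At ZT12, 24 of 29 were at least 2-fold below the median of the other arrays (20.3% of all genes), and at ZT4, 22 of 29 (21.8%). Of the 29, 28 were well above background at ZT12 and 25 at ZT4, so these counts may rest in part on genes near background. With only genes well above background on all 6 arrays, their median deviation at ZT4 was -1.09, and ZT12 remained lower. With all 29 genes kept, the median of the chaperones stood 1.62 above that of the endocrine genes at ZT12. At ZT0 it stood 1.05 below (a difference of -1.05). At ZT4 the difference was 0.31, 0.03 after quantile normalization and -0.09 with normexp background correction, so no direction is given there. Named by the rule for each list, Iapp read 8.56, 8.13, 7.05, 6.91, 7.52 and 7.33 from ZT0 to ZT20, and Ins2 read 6.94, 8.75, 7.23, 7.44, 7.60 and 7.50. Ins2, whose product is folded by this machinery, was highest at ZT4 and lowest at ZT0 on this scale, unlike the list as a whole. It belongs to the 357 genes with a mean level of 6 or more. Their median deviation at ZT4 was 1.11 on this scale and 0.08 after quantile normalization, and the part of scaling in the ZT4 value of Ins2 was not tested. Neurod1, a beta cell transcription factor, was -5.44 at ZT12, not well above background at ZT4 and between -1.16 and -0.12 on the other 4 arrays. In these pools, fewer cells of a type and less RNA per cell cannot be told apart.

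Other genes of the pathway were read from lists, and 0 genes in any of these 5 lists passed limma's cosine test after adjustment over all genes. Before adjustment 1 gene was under 0.05, Fgf21 among the 18 further ATF4 targets, named here after its value was seen. Translocon and signal peptidase genes (13) had medians of -0.88 at ZT4, 0.68 at ZT16 and 0.73 at ZT20. In that list Sec61a1, the channel subunit, read 6.08, 5.65, 4.85, 4.75, 5.60 and 5.45 from ZT0 to ZT20, and Srpr, the receptor of the signal recognition particle, had the widest range (9.99-fold, ZT4 to ZT16). The 16 other folding genes had medians of -0.55 at ZT12 and 0.74 at ZT16; Ero1b, the beta cell isoform of the ER oxidase, was lowest at ZT4 and highest at ZT20 by 10.5-fold, while Ppib, an ER cyclophilin, was highest at ZT4. The medians of the 12 other ERAD genes lay between -0.21 and 0.45, but single genes ranged further. In that list Selenok was lowest at ZT4 and highest at ZT0 (2.75-fold), whereas Os9 was highest at ZT4 and lowest at ZT0 (1.97-fold). Edem2 had the widest range, but it was not well above background at ZT4, its lowest array, so no fold is given. The 18 further ATF4 targets showed medians of 0.16 at ZT4 and -0.03 at ZT12, then -0.32 at ZT16 and 0.32 at ZT20. Atf5, an ATF4-related factor, was lowest at ZT12 and highest at ZT16 (4.81-fold), and Cth, cystathionine gamma-lyase, was lowest at ZT12 and highest at ZT20 (41.8-fold), the array that also had the highest hepatocyte markers. The medians of the 11 other regulators lay between -0.38 at ZT4 and 0.32 at ZT12. Among them Eif2s1, the translation factor subunit that PERK phosphorylates, was highest at ZT4 and lowest at ZT8 (3.07-fold), Atf6b, a relative of ATF6, was highest at ZT8 and lowest at ZT4 (12.5-fold), and Wfs1, an ER membrane protein of beta cells, was lowest at ZT12 and highest at ZT16 (11.2-fold).

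Markers of other cells moved across the same arrays. The summed level (signal over the array's 75th percentile) of the 14 chaperones was 513, 196 and 222 on the ZT0, ZT4 and ZT8 arrays and 165, 417 and 387 on those of ZT12, ZT16 and ZT20. That of the 12 lymphocyte markers, all well above background on all 6 arrays, was 78.8, 385, 96.7, 282, 30.0 and 16.2 over the same arrays, highest at ZT4 and ZT12 where the chaperones were low. Plasma cell markers (6 of 7 tested), from cells rich in ER, summed to 77.0, 126, 43.4, 107, 7.79 and 4.16, and macrophage markers (7 of 8) to 36.0, 229, 59.1, 147, 15.6 and 14.8. The 15 acinar markers, of enzyme-secreting cells also rich in ER, summed to 2026, 2219, 953, 593, 1281 and 1750, highest at ZT4 and lowest at ZT12. Such a sum rests on the brightest genes. The median deviation of the acinar markers was instead highest at ZT20, with 1.04 there and 0.49 at ZT4. After quantile normalization it was 1.48 at ZT20 and -0.37 at ZT4, and ZT12 remained the lowest array (-1.83). Intestinal markers (5 of 7) summed to 332 at ZT4 and 1.88 to 17.0 elsewhere, and hepatocyte markers (5 of 7) to 239 at ZT20 and 3.73 to 28.1 elsewhere. The sum of the 7 stromal markers ran from 43.0 at ZT20 to 303 at ZT4. By gene, 5 of the 7 were instead highest at ZT0, and 1 each at ZT4 and ZT12. Their median deviation at ZT4 was 0.59, lower than at ZT0. After quantile normalization it was -0.02 at ZT4 and 0.83 at ZT0. The sum of endothelial markers (7) ran from 21.9 to 63.1, and that of duct markers (6 of 7) from 0.841 at ZT12 to 8.40 at ZT8. Not all markers were well above background on each array. At ZT12, 14 of 15 acinar, 4 of 5 intestinal and 5 of 6 duct markers were. So were 4 of 5 hepatocyte markers at ZT0, ZT4 and ZT12, and 5 of 6 plasma cell markers at ZT16 and ZT20. The part of these cells in the levels of the ER genes was not tested.

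**Figure D4:**
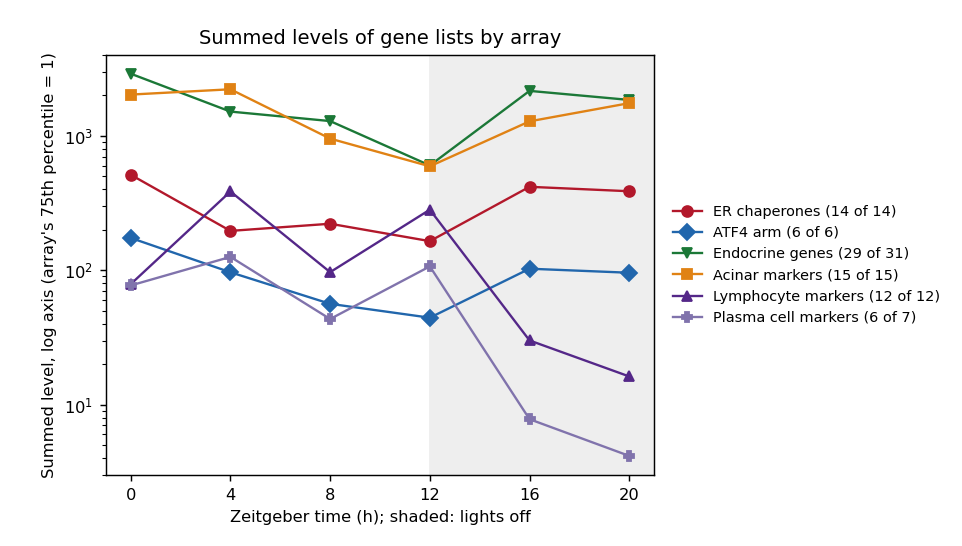
Summed level (log axis, 1 is the array's 75th percentile) of the chaperones, the ATF4 arm, endocrine genes and 3 lists of markers of other cells against zeitgeber time, 1 pooled array per point. Lymphocyte and plasma cell markers are high at ZT4 and ZT12 and lowest at ZT20, whereas the chaperones sum to 196 and 165 at ZT4 and ZT12 and to 417 at ZT16.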

How the data were processed

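Islet RNA of 6 pools was labelled with Cy3 and read on 1 Agilent array per time point. Per the submitters' processing notes, Agilent Feature Extraction 11.0.1.1 made the scanner files. The authors deposited spot signals as linear intensity, not normalized between arrays, with 0 or 1 flags (other columns) for spots well above background, saturated or outlying. They also deposited a table of log2 values for 30170 probes, whose columns share 1 maximum (18.4) and medians of 8.62 to 8.63 and follow each array's own signal (r 0.9987 to 0.9998); its direction is level, genes are not centred, and the steps behind it are not given in the sources used here.

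Control spots were dropped, spots of a probe were averaged without outliers, and the array's 75th percentile was subtracted in log2. Of 39429 probes, 69.1% took a symbol from RefSeq names; promoters are from RefSeq, GRCm38.p6. A probe was tested when well above background on at least 3 of 6 arrays and not outlying in every spot of any array. The probe of highest mean stood for a gene. A 24 h cosine (3 residual degrees of freedom) was fitted with limma 3.58.1 in R 4.3.3 and checked on simulated data. Values on all arrays are printed for the 3 members of highest mean and the widest range in each role list, and other lists name genes by highest mean and widest range. Members and lists were chosen with earlier results of these data known. Alternatives were quantile normalization, median centring, the authors' values, normexp with an offset of 50, other filters and probes, scan as a covariate, an unshrunk F test, periods of 20 and 28 h, and each array left out. The number of arrays limits the precision.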

Additional observations from a re-analysis of the deposited data

How the results depend on the processing

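No paired analysis was possible because each time point has 1 sample. With 1 array per time point and 3 scans, time, pool and scan are not separable, and with scan as a covariate 1 residual degree of freedom is left. A tested value was counted as kept when it stayed on its side of the threshold, a count when it stayed within 1.5 times, and an untested median when it moved by less than the residual SD of a cosine fitted to that list. So counted, 1390 of 1433 values under the alternatives were kept and 43 moved. Sizes changed more than this shows: 57 of 575 fitted amplitudes moved by over 1.5 times and 47 of 656 untested medians or differences changed sign, 8 of them in chaperones minus ATF4 arm and 5 in chaperones minus endocrine genes. The count of members passing the adjusted cosine test was 0 in each alternative run. The count with an unadjusted limma p under 0.05, 0 as reported, was 1 with quantile normalization, 1 with median centring, 1 with the authors' values, 1 with a 28 h period and 2 with the unshrunk F test, and 0 to 11 with an array left out. Of members differing 2-fold or more from the other arrays' median, the count above at ZT0 was 0 with quantile normalization, 0 with the authors' values, 1 with normexp and 3 with the mean of a gene's probes, and 3 to 9 with an array left out. The count above at ZT4 was 0 with quantile normalization, the authors' values and normexp, and so was the count below at ZT8. Median centring gave 2 above and 2 below at ZT8. Within the shared scan the counts were 1 above and 4 below at ZT8, 6 above at ZT16 and 6 above at ZT20. With an array left out, the count above at ZT8 was 1 to 5, below at ZT8 0 to 1, and above at ZT12 0 to 1. The fitted peak moved by more than 6 h in 2 of 16 alternatives for Pdia4, and in 1 for Pdia3, Dnajb11, Sdf2l1, Atf6, Ddit3 and Ppp1r15a. Dim probes limit the account of Hyou1. The cause of these moves was not tested.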

Other observations

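Heat shock genes of the cytosol and mitochondria, which serve protein folding outside the ER, did not share the low ZT4 array of the ER chaperones. The median deviation of the 11 heat shock genes tested (of 12 listed) was -0.52 at lights on, 0.53 at ZT4, -0.49 at ZT8, 0.26 at lights off, then 0.02 at ZT16 and -0.34 at ZT20. After quantile normalization it was -0.13 at ZT4, 0.11 at ZT12 and 0.51 at ZT16. The median of the ER chaperones was 1.63 below that of the heat shock genes at ZT4 (a difference of -1.63) and 1.09 above it at ZT20. Hspa8, the constitutive cytosolic HSP70, read 6.99, 7.65, 6.20, 6.51, 6.76 and 6.41 from ZT0 to ZT20, and Hsp90ab1, a cytosolic HSP90, read 7.01, 7.14, 5.79, 6.45, 6.16 and 5.89. Both were highest at ZT4 and lowest at ZT8 on this scale. They belong to the 357 genes with a mean level of 6 or more. The median deviation of those 357 was 1.11 at ZT4 and -0.54 at ZT8 on this scale, and 0.08 on both arrays after quantile normalization. The part of scaling in the profiles of Hspa8 and Hsp90ab1 was not tested. Hspa1a, the inducible HSP70, was highest at ZT12 and lowest at ZT16, with a range of 4.47-fold. In limma's cosine test 0 of the 11 passed after adjustment and 1, Hsph1, had an unadjusted p under 0.05; it is named after its value was seen.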
